A study of Mus musculus with 24 samples.

Results

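Bone morphogenetic proteins (BMPs) and the genes that read out their signal were followed in female mouse embryonic stem cells (mESCs) as they were differentiated towards neural cells, with and without the chromatin protein SmcHD1. The 10 genes were chosen by name, as rows of the deposited gene table: the ligands Bmp2, Bmp4 and Bmp7, the Id genes Id1, Id2, Id3 and Id4, and the feedback inhibitors Smad6, Smad7 and Bambi. They are 10 of 23119 genes listed, and each had an entry of its own. Of the 12105 genes outside the sex chromosomes whose mean was at least 1 FPKM (reads per length of transcript, adjusted for library depth), 9 are members, and Bmp2 (mean 0.886 FPKM) fell below that level.

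RNA-seq libraries came from JB4/EI7HZ2 cells, which carry a JF1 and a B6 genome, CAGzeo at Hprt on the JF1-X and IRESneo in Eif2s3x on the B6-X. They were wild type (WT) or carried a CRISPR–Cas9 mutation of Smchd1 (KO, 1 line), and both were collected at 4 stages, namely mESCs, 7 days and 9 days of differentiation (day 7 and day 9 cells) and neural stem cells (NSCs). Each of the 8 groups held 3 replicates, 24 libraries altogether. The media of mESCs and NSCs contained G418 and zeocin. The mESCs were kept in serum with LIF and the inhibitors PD0325901 and CHIR99021, the day 7 and day 9 cells were aggregates of early neurectoderm made by way of epiblast-like cells (Activin A, bFGF), and the NSCs came from a separate protocol with FGF2 and EGF, so stage and culture medium cannot be told apart in comparisons with mESCs or NSCs. As WT and KO are 1 line each, genotype and line cannot be told apart either. The study describes the replicates of mESCs and of the cells differentiating from them as independent experiments.

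BMP ligands are secreted dimers that bring together type I and type II receptor kinases. The activated receptors phosphorylate Smad1, Smad5 and Smad9, which join Smad4 and switch on target genes. The Id genes are among the best known of these targets: their proteins lack a DNA-binding region, pair with E proteins such as Tcf3, Tcf4 and Tcf12 and keep them from binding DNA with neural basic helix-loop-helix factors. In mESCs BMP and LIF together hold back neural commitment, and secreted antagonists such as Noggin and Chordin favour neural tissue by binding the ligands. Later in neural development BMPs act as dorsal patterning and glia-promoting signals.

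The libraries differed little in depth: whole-read steps in low genes put their relative read numbers within 1.42 times of each other. Smchd1 was at 1.82 to 4.40 FPKM in KO and at 12.96 to 26.4 FPKM in WT libraries. The 5 pluripotency markers summed to 2333–2857 FPKM in mESCs and to 0.744–6.61 FPKM in NSCs, and the 5 NSC markers to 93.2–155 and 4045–7027 FPKM. At day 7, 5 neurectoderm markers summed to 85.6–107 FPKM in WT and 163–194 FPKM in KO, against 0.726–2.07 FPKM in mESCs. Replicate 2 stood apart in mESCs of both genotypes for several members. The bulk samples do not tell fewer expressing cells from less RNA per cell.

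Reads of each member could be recovered as whole numbers, since every FPKM value of the 10 genes was a whole multiple of the worth of 1 read in its library, within 0.15 reads. The ligands rest on few reads. Bmp2 had 0 to 44 reads per library, Bmp4 0 to 60 and Bmp7 14 to 118, whereas Id2 had 22 to 1110 and Id3 35 to 1208. Read intervals given here are exact (Clopper-Pearson) 95% intervals, and they cover counting error only.

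In mm9, the build of the deposited table, Id1 lies at chr2:152562010-152563146, Id2 at chr12:25778664-25780957, Id3 at chr4:135699737-135701307 and Id4 at chr13:48356796-48359405. The ligand loci are Bmp2 at chr2:133378935-133388621, Bmp4 at chr14:46999199-47010274 and Bmp7 at chr2:172695189-172765794. The inhibitor Smad6 lies at chr9:63800883-63869866. Bmp4 overlaps Gm15217, which the annotation places on the opposite strand, and whether reads were counted by strand is not stated. Gm15217 was at 0 in 23 libraries and at 0.434 FPKM (1 read) in WT mESC replicate 2.

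SMAD proteins bind GC-rich elements and SMAD boxes, so the letters GGCGCC, a palindrome, and GTCTAG, on either strand, were looked for in promoters (250 bases before to 50 after the start, RefSeq, GRCm38.p6). Of the 10 genes, 5 had a window: Id2, Id3, Id4, Bmp4 and Smad6. GGCGCC was found in the windows of Id2 and Id4, against 11.9% of 32851 promoters. GTCTAG was found in that of Smad6, as 2 overlapping matches at the start itself, against 8.37% of promoters. The 30 bases around the matches of Id2 and Id4 are shown, as these are the Id genes with a match. Each matched mm9 at 1 place, Id2 at chr12:25781171-25781200 on the minus strand and Id4 at chr13:48356325-48356354 on the plus strand, with the matched letters in capitals.
Id2: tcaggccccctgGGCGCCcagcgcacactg
Id4: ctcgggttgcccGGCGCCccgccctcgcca

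The match begins at -231 for Id2 and at -148 for Id4, counted from the RefSeq start of the promoter table, which for Id4 lies upstream of the start of the deposited locus. A match is a run of letters and not a measured binding site. Id2 and Id4 did not share an expression pattern in these cells, as the levels below show.

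**Figure D1:**
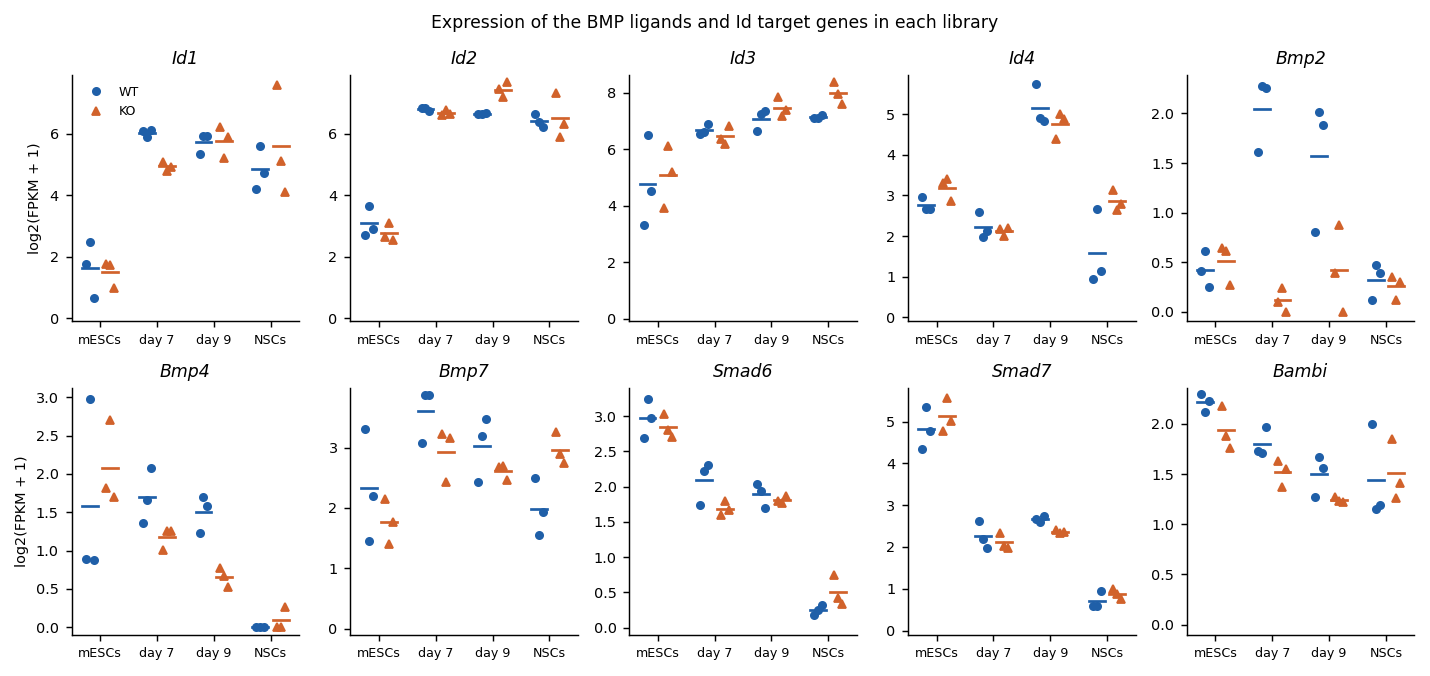
Expression of each of the 10 genes as log2(FPKM + 1) (y axis) at 4 stages (x axis). Each point is 1 library (circles WT, triangles KO) and bars are means of 3 libraries. Id1, Id2 and Id3 are low in mESCs and higher afterwards, Id4 is highest at day 9, and Smad6 and Smad7 are lowest in NSCs.

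The Id genes were compared between stages to see how the response genes moved during neural differentiation. In WT cells Id1, Id2 and Id3 rose from mESCs to day 7 and stayed up in NSCs, whereas Id4 rose from day 7 to day 9. The feedback inhibitors Smad6 and Smad7 fell from mESCs to day 7. From mESCs to day 7 in WT cells, 4 of the 9 tested members were called higher (Id1, Id2, Id3, Bmp7) and 2 lower (Smad6, Smad7), with 59.2% of all tested genes called in either direction. In the same WT libraries mesoderm markers went from 10.4–15.9 FPKM summed in mESCs to 65.4–164 FPKM at day 7, endoderm markers from 1.09–3.09 to 21.0–51.1 FPKM and surface ectoderm markers from 146–178 to 357–631 FPKM, and their part in the changes from mESCs to day 7 was not tested. The surface ectoderm list already summed to 146–178 FPKM in mESCs, so its sum does not by itself mark surface ectoderm cells. All calls are by limma on log2(FPKM + 1) at a Benjamini-Hochberg adjusted p under 0.05 over the 12105 genes, and every log2 fold change is on that scale.

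Id1 encodes an inhibitor of differentiation that is a direct BMP target in many tissues. Its levels in WT mESCs were 2.44, 4.62 and 0.599 FPKM in replicates 1 to 3, and those in WT day 7 cells 66.8, 58.6 and 69.1 FPKM. The day 7 libraries were all above the mESC libraries, and the mean rose 25.4 times (log2 fold change 4.39, SE 0.64, adjusted p = 1.46e-05 by limma). Without WT mESC replicate 2 it rose 42.7 times, and over the 30 alternatives the log2 fold change ran from 3.9 to 5.0. WT day 9 cells had 39.4, 60.1 and 60.2 FPKM and WT NSCs 17.4, 47.9 and 25.7 FPKM. The step from day 7 to day 9 was not called (-0.30, adjusted p = 0.756), and NSCs stayed above mESCs (3.20, adjusted p = 0.000219).

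Id2, which is expressed in many progenitor types, followed the same course with a tighter spread. It was at 5.56, 11.5 and 6.55 FPKM in WT mESCs and at 113, 113 and 107 FPKM at day 7. The rise of 14.1 times (3.72, SE 0.26, adjusted p = 1.41e-10) left no overlap between the groups. At day 9 the levels were 97.7, 97.9 and 100 FPKM and in NSCs 97.7, 81.8 and 73.0 FPKM, so the 9 differentiated WT libraries lay within a narrow range.

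Id3 was the most abundant Id gene in mESCs, and its mESC level was not stable. WT mESCs had 8.95, 89.2 and 22.0 FPKM and KO mESCs 14.1, 69.2 and 36.1 FPKM, with replicate 2 highest in both genotypes. WT day 7 cells had 92.2, 98.3 and 117 FPKM, each above the mESC libraries. The rise (1.91, SE 0.59, adjusted p = 0.0104) was lost without WT mESC replicate 1 (1.18, adjusted p = 0.0721), and with replicate 2 of both mESC groups left out it was 2.77 (adjusted p = 6.44e-06). WT day 9 cells had 98.3, 150 and 163 FPKM and WT NSCs 137, 137 and 149 FPKM.

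Id4, an Id gene known from neural progenitors and astrocytes, behaved differently. WT levels were 6.85, 5.34 and 5.39 FPKM in mESCs, 5.05, 2.92 and 3.37 FPKM at day 7 and 52.3, 28.99 and 27.3 FPKM at day 9. All day 9 libraries were above all day 7 libraries, and the rise of 9.57 times (2.92, SE 0.33, adjusted p = 6.54e-07) was the only member called between WT day 7 and day 9 cells, where 33.8% of tested genes were called. Over the same step neuron markers went from 115–153 to 538–586 FPKM summed and NSC markers from 271–343 to 1268–1551 FPKM, and their part in the rise was not tested. From mESCs to day 7 it was at -0.54 (adjusted p = 0.164, and 0.042 without WT NSC replicate 2). WT NSCs were at 0.912, 5.39 and 1.21 FPKM, with replicate 2 well above the others. Against WT mESCs this was a fall (-1.19, adjusted p = 0.00259) although the groups overlapped.

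The ligands differed in timing. Bmp7, which acts in neural and kidney development, was at 8.92, 1.74 and 3.61 FPKM in WT mESCs, 7.45, 13.6 and 13.6 FPKM at day 7, 4.37, 8.15 and 10.1 FPKM at day 9 and 4.63, 1.92 and 2.80 FPKM in NSCs. The groups of mESCs and day 7 cells overlapped, and the rise between them (1.28, SE 0.37, adjusted p = 0.00595) was lost without WT mESC replicate 2 (0.85, adjusted p = 0.0548). With replicate 2 of both mESC genotypes left out, which was chosen after seeing the data, it was 0.85 (adjusted p = 0.0538).

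Bmp4, the ligand best known for keeping mESCs from neural fates, was low throughout. WT mESCs had 0.857, 6.86 and 0.829 FPKM, again with replicate 2 far above the others, WT day 7 cells 1.57, 2.15 and 3.22 FPKM and WT day 9 cells 1.34, 2.25 and 1.99 FPKM. No WT NSC library had a Bmp4 read. The change from mESCs to day 7 was not called (0.12, adjusted p = 0.805), and it was called as a rise without replicate 2 of WT mESCs (0.82, adjusted p = 0.00778). WT NSCs were called lower than WT mESCs (-1.58, adjusted p = 0.000631), by -0.88 with replicate 2 of both mESC groups left out (adjusted p = 0.000402) and by -4.20 with a pseudocount of 0.1 (adjusted p = 1.17e-06).

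Bmp2, a close relative of Bmp4, appeared in WT cells at day 7. WT mESC libraries held 4, 6 and 2 Bmp2 reads, day 7 libraries 27, 44 and 41, day 9 libraries 10, 40 and 35, and NSC libraries 1, 5 and 4. The day 7 libraries, at 2.05, 3.86 and 3.79 FPKM, were all above those of mESCs, at 0.332, 0.531 and 0.183 FPKM. Bmp2 is tested only in a fit without the filter on low values (18156 genes), where the rise was 1.63 (SE 0.26, adjusted p = 2.84e-05, with 46.9% of genes called).

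Smad6 and Smad7 fell while Id1, Id2 and Id3 rose. Smad7 (mm9 chr18:75527019-75555588) blocks the receptors and is induced by TGF-beta and BMP signals. It was at 19.2, 40.0 and 26.5 FPKM in WT mESCs, 5.17, 3.59 and 2.93 FPKM at day 7, 5.33, 5.09 and 5.73 FPKM at day 9 and 0.493, 0.505 and 0.917 FPKM in NSCs. No mESC library overlapped a later stage, and the fall was -2.56 at day 7 (SE 0.22, adjusted p = 1.51e-09) and -4.12 in NSCs (adjusted p = 1.55e-13).

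Smad6, which preferentially inhibits BMP signalling, was at 5.48, 8.51 and 6.82 FPKM in WT mESCs and 2.34, 3.66 and 3.94 FPKM at day 7 (-0.88, SE 0.17, adjusted p = 0.000109). At day 9 it was at 3.09, 2.85 and 2.26 FPKM, and in NSCs at 0.137, 0.193 and 0.255 FPKM (-2.71 against mESCs, adjusted p = 2.33e-12, and -4.57 with a pseudocount of 0.1). The 3 WT NSC libraries held 9 Smad6 reads together.

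Bambi (mm9 chr18:3507955-3516402), a receptor decoy that lacks a kinase, had the narrowest range of group means of the tested members on the log2 scale. WT levels were 3.93, 3.34 and 3.68 FPKM in mESCs, 2.32, 2.26 and 2.92 FPKM at day 7, 1.42, 2.17 and 1.96 FPKM at day 9 and 2.98, 1.22 and 1.28 FPKM in NSCs. Every day 7 and day 9 library was below every mESC library. The step to day 7 was not called (-0.41, adjusted p = 0.0743, and 0.0258 without WT NSC replicate 1) and the difference between NSCs and mESCs was (-0.77, adjusted p = 0.00123, and -0.46 after scaling, adjusted p = 0.037).

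Between WT NSCs and WT mESCs 8 of 9 members were called, 3 higher (Id1, Id2, Id3) and 5 lower (Id4, Bmp4, Smad6, Smad7, Bambi), with 75.2% of tested genes called. The exception was Bmp7 (-0.33, 95% interval -1.11 to 0.44). The comparisons of day 7 cells and of NSCs share the mESC libraries.

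KO cells were put through the same stage comparisons. From KO mESCs to KO day 7 cells 7 of 9 members were called, with Id1, Id2 and Bmp7 higher and Id4, Bmp4, Smad6 and Smad7 lower (61.3% of tested genes called). From KO day 7 to KO day 9 cells Id2 and Id4 were called higher (30.6% called), and between KO NSCs and KO mESCs 7 were called, with Id1, Id2, Id3 and Bmp7 higher and Bmp4, Smad6 and Smad7 lower (76.0% called). The Id3 step to day 7 was at 1.38 (adjusted p = 0.0527), and it was called without KO mESC replicate 2 (1.90, adjusted p = 0.0145), WT mESC replicate 1 (0.0205) or WT mESC replicate 2 (0.00916), without replicate 2 of both mESC groups (0.000293), after scaling (0.0304), and by limma without trend and robust settings (0.0365). Over the 30 alternatives the Id3 step ran from 0.79 to 1.90 and its adjusted p from 0.000293 to 0.266. Bambi was at -0.42 at KO day 7 (adjusted p = 0.0669, and 0.0223 without WT NSC replicate 1). In KO NSCs it was at -0.43 (adjusted p = 0.0501), and it was called without KO NSC replicate 1 (-0.60, 0.013), KO mESC replicate 3 (-0.52, 0.0384), WT NSC replicate 1, 2 or 3 (0.0156, 0.0428 and 0.0466) or WT day 9 replicate 1 (0.049), and by limma without trend and robust settings (0.0419).

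Several of these KO calls were narrow. The Bmp4 fall to day 7 (-0.90, adjusted p = 0.0417) was lost without KO mESC replicate 2 (-0.58, adjusted p = 0.22), without KO day 7 replicate 1, 2 or 3 (adjusted p = 0.108, 0.0669 and 0.0678), with a pseudocount of 0.1 (0.0639), without the filter (0.0566) and after scaling each library to the same FPKM sum (0.0887). The Id2 rise to day 9 (0.76, adjusted p = 0.0311) was lost in 5 of 24 fits that left out a library, namely KO day 7 replicate 1 (0.0817), 2 (0.0532) or 3 (0.0763) and KO day 9 replicate 1 (0.0684) or 3 (0.124). The Bmp7 rise to day 7 (1.16, adjusted p = 0.0106) was lost without KO mESC replicate 2 (0.98, adjusted p = 0.0529). The Bmp7 difference between KO NSCs and KO mESCs (1.20, adjusted p = 0.00662) and the remaining KO stage calls were not lost in any fit.

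**Figure D2:**
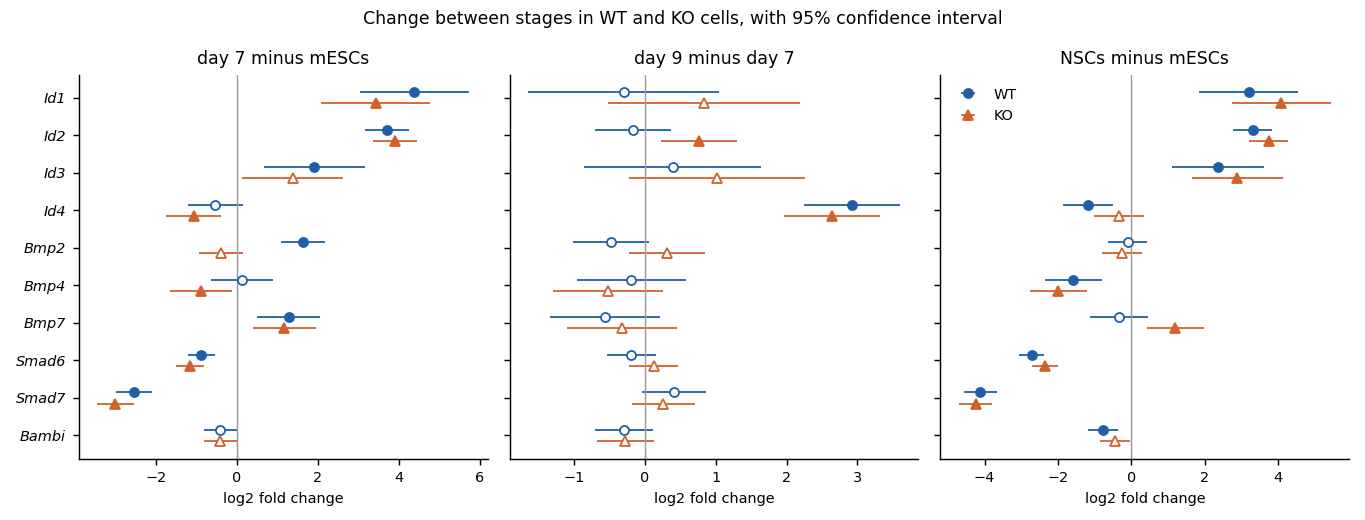
Log2 fold change on the log2(FPKM + 1) scale (x axis) of each gene (y axis) for 3 stage comparisons, in WT (circles) and KO cells (triangles), with 95% confidence intervals. Filled symbols passed the adjusted p threshold, and Bmp2 is from the fit without the filter. Id1, Id2 and Id3 lie right of 0 at day 7 and in NSCs in both genotypes, and Smad6 and Smad7 left of it.

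The summed FPKM of a library ranged from 504660 in an NSC library to 802938 in an mESC library. When every library was scaled to the same sum, the median log2 fold change of all tested genes moved to 0.18 in WT day 7 cells, 0.36 in WT NSCs, 0.14 in KO day 7 cells and 0.44 in KO NSCs. Higher calls went from 49.1% to 66.4% of all calls, 49.1% to 66.2%, 48.1% to 63.3% and 49.7% to 68.3% in these comparisons. From day 7 to day 9 the median moved to 0.13 in WT and 0.07 in KO cells, and the portion of higher calls from 54.7% to 72.2% in WT cells. None of the member calls changed direction, whereas the uncalled differences of Bmp7 in WT NSCs (0.01 after scaling) and Id4 in KO NSCs (0.12 after scaling) did.

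Within the Id family the make-up of the transcripts changed with stage. Summed over Id1 to Id4, WT cells held 56.3 ± 47.3 FPKM in mESCs (mean ± SD, n = 3), 282 ± 12.4 at day 7, 325 ± 33.1 at day 9 and 258 ± 12.01 in NSCs. The WT mESC libraries ran from 23.8 to 110.7 FPKM. Id3 was 60.7 ± 21.7% of the sum in WT mESCs, 36.3 ± 3.16% at day 7 and 54.8 ± 4.84% in NSCs. Id2 took 39.4 ± 3.02% at WT day 7, where its range over the libraries overlapped that of Id3, and Id4 took 4.83 to 28.8% in WT mESCs (mean 16.4%) and 1.34 ± 0.417% at day 7.

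KO cells held 55.9 ± 29.7, 223 ± 17.8, 436 ± 73.4 and 443 ± 217 FPKM of Id transcripts at the 4 stages. At day 7 the share of Id1 was 13.4 ± 1.78% in KO and 23.0 ± 1.37% in WT cells, with library ranges of 12.04–15.4% and 21.5–24.1%. The shares of Id2 and Id3 at day 7 were 45.6 ± 5.55% and 39.5 ± 5.99% in KO cells, and for both genes the KO and WT libraries overlapped.

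Of the summed FPKM of Bmp2, Bmp4 and Bmp7, Bmp7 made up 61.8 ± 37.4% in WT and 41.2 ± 17.3% in KO mESCs, with the WT libraries wide apart. It made up 67.5 ± 1.69% in WT day 7 cells, 65.6 ± 4.26% at day 9 and 90.6 ± 7.49% in NSCs. In KO cells its share was 82.3 ± 7.84%, 84.9 ± 5.97% and 96.2 ± 2.98%. The share of Bmp2 was 18.9 ± 0.727% in WT and 1.26 ± 1.58% in KO day 7 cells, and 17.4 ± 5.59% against 5.65 ± 6.09% at day 9. The sum itself was 17.1 ± 5.23 FPKM in WT and 8.22 ± 1.98 FPKM in KO cells at day 7.

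**Figure D3:**
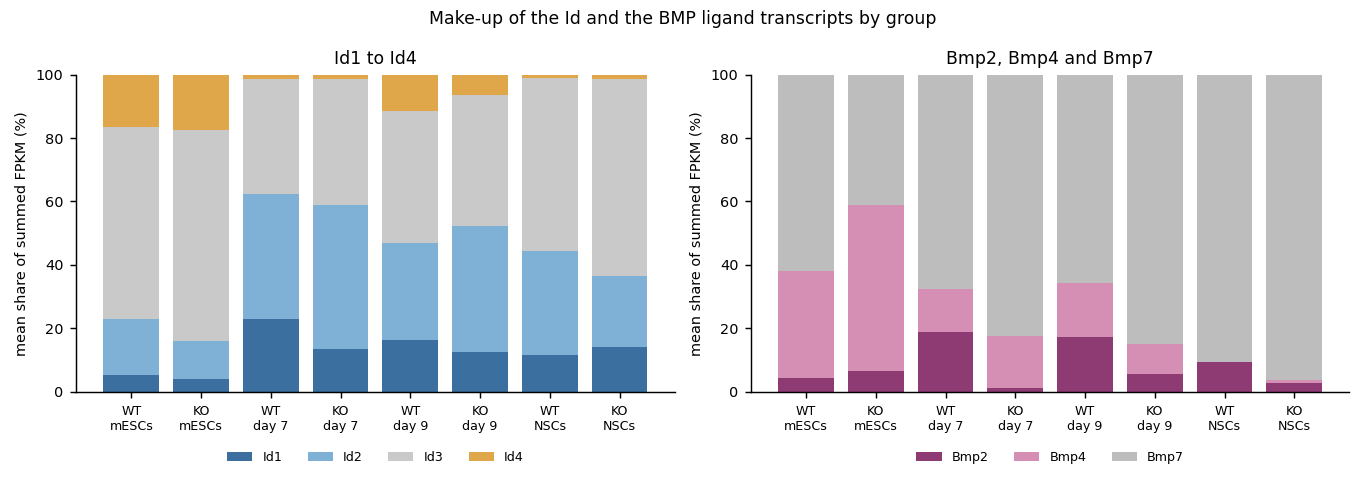
Mean share (y axis, percent of summed FPKM) of each Id gene (left) and of each ligand (right) in the 8 groups (x axis, 3 libraries each). Bmp2 takes 18.9% of the ligand sum in WT and 1.26% in KO cells at day 7, and Id3 is the largest part of the Id sum in mESCs and NSCs.

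WT and KO cells were then compared within each stage, which asks whether loss of SmcHD1 touches these genes. Bmp2 was far lower in KO than in WT cells at day 7 and lower at day 9. No tested member was called in mESCs or in day 7 or day 9 cells, and in NSCs Id4 was called higher in KO cells. Of all 12105 tested genes 0.529%, 3.68%, 6.68% and 6.02% were called at these stages. Scaling moved calls in the higher direction from 38.6% to 22.7% of day 9 calls, and in NSCs they went from 42.25% to 54.2%.

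In mESCs 0 of 9 members were called by limma and 0 had an unadjusted p under 0.05, against 927 of the 12105 tested genes. No member's libraries separated the genotypes (5.07% of tested genes lay wholly above WT and 5.93% wholly below). Smad7 was at 26.6, 46.1 and 31.5 FPKM in KO mESCs, and Id1 at 2.44, 2.32 and 0.997 FPKM. In the shared fit Bmp7 had the largest difference, with 3.43, 1.63 and 2.40 FPKM in KO cells (-0.55, 95% interval -1.33 to 0.23). Over the 31 alternatives it ran from -0.99 to -0.06, and with a pseudocount of 0.1 Bmp4 (0.83) differed more than Bmp7 (-0.67). Bmp4, at 2.53, 5.51 and 2.24 FPKM in KO mESCs, was called higher (1.19, adjusted p = 0.0252) once WT mESC replicate 2 was left out, and not when replicate 2 of both genotypes was (0.88, adjusted p = 0.0996).

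At day 7 Bmp2 was nearly absent from KO cells. The KO libraries held 1, 2 and 0 reads, at 0.0717, 0.180 and 0 FPKM, against 27, 44 and 41 reads in WT cells. Corrected for depth, the 112 WT and 3 KO reads give a WT to KO ratio of 38.2 (95% interval 12.7 to 188). Leaving out 1 day 7 library gave ratios from 26.4 (8.82 to 130, without KO replicate 3) to 79.4 (13.96 to 3163, without KO replicate 2). In the fit without the filter the difference was -1.94 (SE 0.26, adjusted p = 9.44e-05), with 2.53% of 18156 genes called lower. It was passed in 29 of 30 alternatives and lost when only the day 7 libraries entered the fit (adjusted p = 0.0645). The smallest two-sided exact permutation p that 3 against 3 libraries allow is 0.1.

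Other members at day 7 differed less. Of the 9 tested members 0 were called by limma and 1, Smad6, had an unadjusted p under 0.05, as did 1678 of the 12105 tested genes. Id1 was at 33.2, 26.7 and 29.3 FPKM in KO cells, below every WT library, and the KO mean was 0.458 of the WT mean. Taken by replicate number, KO minus WT of Id1 was -0.99, -1.11 and -1.21, although the day 7 libraries were not shown to be paired. The shared fit gave -1.10 with an SE of 0.64 (adjusted p = 0.508). With the day 7 libraries alone the adjusted p of Id1 was 0.00128. The reads behind Id1 were 704 in WT and 333 in KO cells, a ratio of 2.16 (95% interval 1.90 to 2.47).

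Bmp4 at day 7 was at 1.02, 1.39 and 1.39 FPKM in KO cells, all below the WT libraries (-0.52, adjusted p = 0.623). Bambi was at 2.09, 1.59 and 1.93 FPKM, again below every WT library (-0.29, adjusted p = 0.605). With Id1, 3 of 9 tested members lay wholly below WT, as did 12.3% of tested genes. Id2 (96.8, 108 and 98.1 FPKM), Id3 (81.9, 72.3 and 112 FPKM) and Id4 (3.52, 2.99 and 3.56 FPKM) overlapped WT, as did Bmp7 (8.36, 4.36 and 7.88 FPKM), Smad6 (2.03, 2.48 and 2.17 FPKM) and Smad7 (4.03, 3.04 and 2.94 FPKM). The interval of the Id2 difference, -0.68 to 0.40, was the narrowest among the Id genes.

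Markers of other lineages moved with Bmp2 and Id1 at day 7. The 6 mesoderm markers summed to 65.4–164 FPKM in WT and 4.33–8.10 FPKM in KO day 7 libraries, and 3 of the 6 had a mean under 1 FPKM in KO cells and none in WT cells. The 6 endoderm markers summed to 21.0–51.1 FPKM in WT and 0.879–1.74 FPKM in KO cells, with 6 of 6 under 1 FPKM in KO and 2 of 6 in WT cells. Surface ectoderm markers summed to 357–631 and 154–251 FPKM. Foxa2 led the endoderm sum, at 15.1, 37.8 and 35.9 FPKM in WT and 0.344, 1.40 and 0.431 FPKM in KO cells, and none of the markers of either list was at 0 in all 3 KO libraries. The part of such cells in the Bmp2 and Id1 differences was not tested.

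At day 9 Bmp2 was still lower in KO cells, at 0.310, 0.835 and 0 FPKM (4, 11 and 0 reads) against 0.741, 3.03 and 2.70 FPKM (10, 40 and 35 reads). The groups overlapped, as WT replicate 1 lay below KO replicate 2. The read ratio was 5.43 (95% interval 3.11 to 10.1). It was 3.72 (2.14 to 6.95) without KO day 9 replicate 3 and 13.3 (5.004 to 49.9) without KO day 9 replicate 2, which held 11 of the 15 KO reads. The difference was -1.15 (SE 0.26, adjusted p = 0.00809, with 4.31% of genes called lower without the filter). The call was lost without WT day 9 replicate 2 (-0.92, adjusted p = 0.0747), WT day 9 replicate 3 (-0.98, 0.0598) or KO day 9 replicate 3 (-0.93, 0.063), and with the day 9 libraries alone (0.235).

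Of the tested members 0 of 9 were called at day 9 by limma, and 2 had an unadjusted p under 0.05, as did 2091 of the 12105 tested genes. Id2 was at 173, 144 and 202 FPKM in KO cells, above every WT library (97.7 to 100), and the mean was 1.75 times that of WT. Its difference was 0.79 (SE 0.26, adjusted p = 0.079) and was called with the replicate block (adjusted p = 0.0101), with the day 9 libraries alone (0.00355), with replicate 2 of both mESC groups left out (0.0391), and without KO NSC replicate 1 (0.0118), KO NSC replicate 2 (0.0357) or WT mESC replicate 2 (0.044). Bmp4 was at 0.702, 0.588 and 0.434 FPKM in KO cells, below every WT library (-0.85, SE 0.37, adjusted p = 0.224). It too was called with the replicate block (0.0249), with the day 9 libraries alone (0.012), with replicate 2 of both mESC groups left out (0.00344) and without that of WT alone (0.0185).

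The Bmp4 difference at day 9 rested on 57 WT and 17 KO reads, a ratio of 3.21 (95% interval 1.84 to 5.89). Smad7, at 4.32, 4.02 and 4.12 FPKM, and Bambi, at 1.41, 1.34 and 1.33 FPKM, were also below every WT library (-0.31, adjusted p = 0.541, and -0.26, adjusted p = 0.575). Thus 3 members lay wholly below WT (16.8% of tested genes did) and 1 wholly above (15.4%). Id1 (72.7, 35.7 and 58.9 FPKM), Id3 (232, 145 and 167 FPKM), Id4 (20.1, 31.2 and 28.3 FPKM), Bmp7 (5.39, 5.48 and 4.52 FPKM) and Smad6 (2.46, 2.41 and 2.67 FPKM) overlapped WT.

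At day 9 mesoderm markers summed to 19.7–52.5 FPKM in WT and 8.83–16.6 FPKM in KO cells, endoderm markers to 28.1–54.1 and 2.68–11.7 FPKM, and surface ectoderm markers to 174–249 and 77.6–122 FPKM. Neurectoderm markers summed to 118–184 FPKM in WT and 195–228 FPKM in KO cells, and neuron markers to 538–586 and 279–391 FPKM. Their part in the Id2, Bmp2 and Bmp4 differences was not tested.

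In NSCs Id4 was at 7.75, 5.26 and 5.90 FPKM in KO cells and at 0.912, 5.39 and 1.21 FPKM in WT cells. The groups overlapped through WT replicate 2. The difference was 1.27 (SE 0.33, adjusted p = 0.0218), 1 of 9 members called against 2.54% of tested genes called higher. The labels do not say that same-numbered WT and KO libraries were paired. In NSCs their departures from the group mean correlated at r of 0.34, 0.18 and 0.24. With the replicate block the call was lost (adjusted p = 0.0575). It was also lost with the NSC libraries alone (0.339), and without WT NSC replicate 1 (0.94, 0.0783) or 3 (1.05, 0.112) or KO NSC replicate 1 (1.13, 0.0861) or 3 (1.30, 0.0631).

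Id3 was at 337, 246 and 194 FPKM in KO NSCs, above every WT library (0.84, SE 0.59, adjusted p = 0.525). Bmp7 was at 8.54, 6.47 and 5.68 FPKM, above every WT library as well (0.98, SE 0.37, adjusted p = 0.146), on 189 KO and 90 WT reads. Smad6 was at 0.680, 0.338 and 0.259 FPKM, on 18 KO and 9 WT reads (0.24, adjusted p = 0.502), a WT to KO read ratio of 0.475 (95% interval 0.188 to 1.11), and replicate 3 of KO and of WT held 4 reads each. These 3 of 9 members lay wholly above WT, against 8.16% of tested genes.

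Id1 in KO NSCs was spread widely, at 190, 33.5 and 16.2 FPKM, and Id2 at 159, 58.3 and 79.0 FPKM. Replicate 1 was highest for both and also for Id3. The Id1 difference from WT was 0.75 (adjusted p = 0.626) and turned to -0.24 without KO NSC replicate 1. Smad7 (0.987, 0.839 and 0.676 FPKM) and Bambi (2.59, 1.39 and 1.67 FPKM) overlapped WT, and Bmp4 had 2 reads in KO replicate 3 and 0 in the other NSC libraries. Astrocyte markers summed to 44.1–136 FPKM in KO and 7.84–40.7 FPKM in WT NSCs, and endoderm markers to 1.59–4.00 and 0–0.226 FPKM. NSC markers summed to 4045–4918 FPKM in KO and 5511–7027 FPKM in WT NSCs, and neural crest markers to 44.3–57.5 and 76.6–92.4 FPKM. The part of these lists in the Id3, Id4 and Bmp7 differences was not tested.

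**Figure D4:**
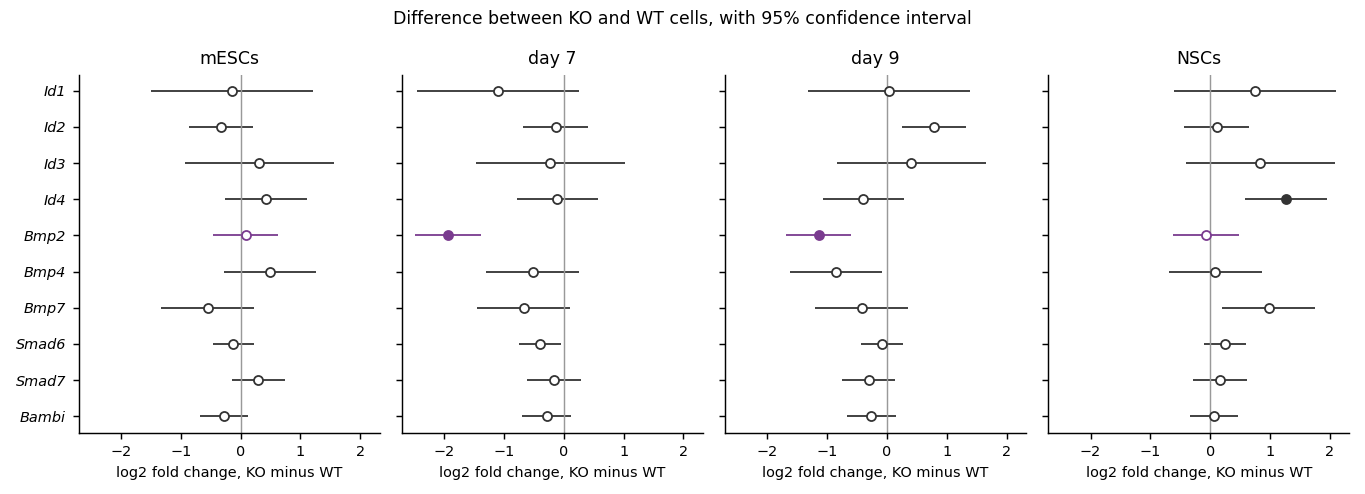
Difference between KO and WT cells (x axis, log2 fold change on the log2(FPKM + 1) scale, with 95% confidence intervals) of each gene (y axis) at 4 stages. Filled symbols passed the adjusted p threshold, and Bmp2 (purple) is from the fit without the filter. Bmp2 lies at -1.94 at day 7 and -1.15 at day 9, and Id4 at 1.27 in NSCs.

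**Figure D5:**
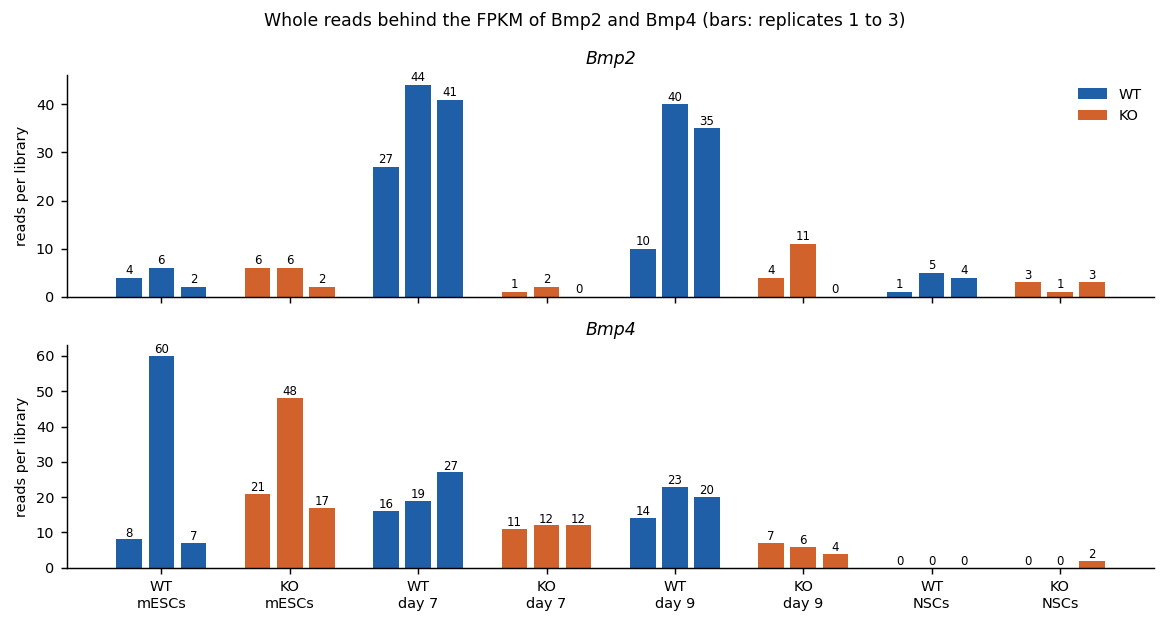
Reads per library (y axis) recovered for Bmp2 and Bmp4 in the 8 groups (x axis), 1 bar for each replicate with its number of reads above it. Bmp2 has 27, 44 and 41 reads in WT and 1, 2 and 0 in KO cells at day 7, and Bmp4 falls to 0 in all WT NSC libraries.

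The effect of KO at a later stage minus its effect in mESCs was tested for each member, to ask whether the genotypes diverged with differentiation. The 3 tests share the mESC libraries. For Bmp2 it was -2.02 at day 7 (SE 0.37, adjusted p = 0.0052, with 0.942% of genes called lower without the filter), and it stayed called in all 29 alternatives. At day 9 it was -1.23 (adjusted p = 0.0861), and it was called without KO day 9 replicate 2 (-1.46, 0.0365) or WT day 9 replicate 1 (-1.61, 0.00266). Among the 9 tested members 0 were called by limma at any of the 3 later stages, where 1.68%, 2.68% and 2.26% of tested genes were. At an unadjusted p under 0.05 there were 0, 2 and 1 members, against 1191, 1497 and 1698 of the 12105 tested genes. The members at that level were Id2 (1.12, adjusted p = 0.137) and Bmp4 (-1.34, adjusted p = 0.242) at day 9 and Bmp7 in NSCs (1.53, adjusted p = 0.161).

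With the replicate block Id2 (adjusted p = 0.0192) and Bmp4 (0.0272) passed at day 9, and Id2 also passed without KO NSC replicate 1 (0.0253). The Bmp4 values depended on mESC replicate 2: with it left out of both genotypes they were -1.40 at day 7 (adjusted p = 0.012) and -1.73 at day 9 (adjusted p = 0.00131), and without that of WT alone -1.71 (0.00776) and -2.04 (0.000932). Bmp7 in NSCs passed without WT mESC replicate 2 (1.96, adjusted p = 0.0328), and Id4 in NSCs (0.85, adjusted p = 0.436) without WT NSC replicate 2 (1.39, 0.0287).

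The order of the group means showed where neighbours could be told apart. Id2 was highest in KO day 9 cells (173 ± 28.98 FPKM), which did not overlap the next group, WT day 7 cells (111 ± 3.85). KO NSC replicate 1 (159 FPKM) did lie above KO day 9 replicate 2 (144 FPKM). The 2 mESC groups of Id2, at 7.86 ± 3.18 and 5.86 ± 1.43 FPKM, lay below all others. Smad6 and Smad7 fell into 3 tiers, with mESCs highest, the day 7 and day 9 cells between and NSCs lowest, and no library of a tier overlapped the next. For Id3 no pair of neighbouring groups was free of overlap.

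Genes whose profile over the 8 group means was most like that of a member were found by the mean absolute difference of the centred log2(FPKM + 1) means. For Id1 the closest was Plekho1 (0.28), for Id2 they were Plekho1 (0.19) and Zfp608 (0.23), for Id3 Dtna (0.18) and Rassf2 (0.20), and for Id4 Kif19a (0.35) and Plk3 (0.35). Id2 ranked 4 of all tested genes for likeness to Id1, whereas the member most like Id3 or Id4 ranked 3634 and 6179. For the inhibitors they were LOC545261 (0.10) and Zfp941 (0.12) for Smad6, Rfx2 (0.21) and Zfp57 (0.23) for Smad7, and Rad17 (0.06) and Cdc42bpg (0.07) for Bambi. For the ligands they were Sorl1 (0.19) and Tcf20 (0.19) for Bmp4, and Egr3 (0.21) and Lenep (0.21) for Bmp7.

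The rest of the pathway was taken from lists of its parts. Of 12 other BMP-class ligands 3 were tested, and Bmp6 was called higher in KO day 9 cells. It was at 3.66, 1.83 and 2.99 FPKM in KO and 0.853, 0.953 and 0.728 FPKM in WT cells, with no overlap (1.02, SE 0.16, adjusted p = 0.000152). Gdf3 and Gdf11 were not called in any KO against WT comparison. Of all tested genes, the KO against WT test called 0.529% for mESCs, 3.68% for day 7 cells, 6.68% for day 9 cells and 6.02% for NSCs.

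The list of secreted antagonists and modulators of BMP signalling held 18 genes, and 11 were tested. From mESCs to day 7, 8 of the 11 rose in WT and 6 in KO cells, and none fell, with 59.2% and 61.3% of all tested genes called in either direction. At day 7 in KO cells 4 of 11 were lower than in WT (Cer1, Chrd, Nog and Fstl1) and none higher, with a median log2 fold change of -0.42 over the list and 0.00 over all tested genes, of which 3.68% were called. In the same libraries the endoderm markers summed to 0.879–1.74 FPKM in KO and 21.0–51.1 FPKM in WT cells and the mesoderm markers to 4.33–8.10 and 65.4–164 FPKM, and their part in the difference was not tested. Chrd (Chordin) was at 0.647, 0.812 and 0.608 FPKM in KO and 8.16, 13.2 and 9.32 FPKM in WT cells, and Nog (Noggin) at 1.35, 0.242 and 0.844 FPKM against 3.57, 10.0 and 12.6 FPKM. Cer1, a secreted antagonist made by early endoderm, was at 0.215, 3.10 and 2.29 FPKM in KO and 40.9, 101 and 66.2 FPKM in WT cells (-4.70, adjusted p = 1.27e-08). The KO effect at day 7 minus that in mESCs was also called for 3 of the 11, Cer1, Chrd and Nog, against 1.68% of all tested genes.

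At day 9 Fst (follistatin) was higher in KO cells, at 15.3 to 18.0 FPKM against 6.57 to 7.27 FPKM (1.12, SE 0.25, adjusted p = 0.00558), a call that was lost with a pseudocount of 0.1 (0.276). Fstl1 was lower, at 49.7 to 54.3 FPKM against 71.6 to 88.0 FPKM (-0.62, adjusted p = 0.00293), and so was Bmp1. In mESCs and NSCs 0 of the 11 were called by limma, against 0.529% and 6.02% of all tested genes. At an unadjusted p under 0.05 there were 3 and 4 of the 11, against 927 and 2196 of the 12105 tested genes.

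Of 10 receptors and co-receptors 9 were tested. Rgmb, a BMP co-receptor, was at 14.1, 12.9 and 15.3 FPKM in KO and 8.73, 8.42 and 8.62 FPKM in WT day 7 cells (0.65, adjusted p = 0.0221), a call lost with scaling (0.0558), with the replicate block (0.0501) and without KO day 7 replicate 1 (0.0727) or 3 (0.118) or WT day 7 replicate 2 (0.0906) or 3 (0.0739). At day 9 it lay the other way, at 13.8, 20.9 and 20.5 FPKM in KO and 36.9, 30.9 and 26.4 FPKM in WT cells (-0.75, adjusted p = 0.00509, and 0.0589 without KO day 9 replicate 1). Bmpr1b, a type I receptor, was higher in KO day 9 cells (6.15, 5.37 and 7.30 against 3.17, 2.70 and 3.06 FPKM, 0.87, adjusted p = 0.00144). In NSCs it was lower (1.22, 1.57 and 0.942 against 4.96, 5.53 and 4.20 FPKM, -1.40, adjusted p = 1.12e-05).

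Of 12 SMADs and their regulators 11 were tested, and 0 were called between KO and WT cells by limma at any stage. In mESCs, day 7 cells, day 9 cells and NSCs 0.529%, 3.68%, 6.68% and 6.02% of all tested genes were called. At an unadjusted p under 0.05 there were 1, 0, 2 and 2 of the list, against 927, 1678, 2091 and 2196 of the 12105 tested genes. From mESCs to day 7 in WT cells 6 of the 11 rose (Zfp423, Smad1, Smad5, Ctdsp1, Ski and Smad4) and none fell, against 59.2% of all tested genes called in either direction. The list includes the BMP-activated Smad1 and Smad5, and both also rose in KO cells.

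Among 12 other genes known to respond to BMP, 7 were tested. At day 7 Msx3 was higher in KO cells and Lmx1a and Hey1 lower, and at day 9 Msx3, Tfap2a and Msx2 were higher and Gata2 and Hey1 lower. These are 3 and 5 of 7, against 3.68% and 6.68% of all tested genes called. The mesoderm, endoderm and surface ectoderm markers given above moved in the same libraries, and their part was not tested. Lmx1a, a roof plate factor, was at 0.0663 to 0.265 FPKM in KO and 1.12 to 5.86 FPKM in WT day 7 cells (-1.92, adjusted p = 0.000265, and 0.0534 with the day 7 libraries alone). Gata2 was at 1.89 to 2.43 FPKM in KO and 7.49 to 9.46 FPKM in WT day 9 cells (-1.54, adjusted p = 3.08e-05). Tfap2a, a factor of neural crest and surface ectoderm, was at 4.72 to 7.37 FPKM in KO and 0.336 to 0.531 FPKM in WT NSCs (2.16, adjusted p = 8.98e-07). Msx3, a dorsal neural tube factor, was at 3.02 to 3.99 FPKM in KO and 0.820 to 0.972 FPKM in WT day 7 cells (1.28, adjusted p = 0.00129), and its day 9 difference was 4.25.

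The E proteins Tcf3, Tcf4 and Tcf12, which Id proteins bind, were all tested. All 3 rose from mESCs to day 7 and to NSCs in both genotypes, where 59.2% (WT) and 61.3% (KO) of all tested genes were called at day 7 and 75.2% and 76.0% in NSCs. Tcf12 was higher in KO day 9 cells, at 107 to 119 FPKM against 78.2 to 81.3 FPKM (0.47, adjusted p = 0.0143), and the call was lost with scaling (0.119) and without KO day 9 replicate 3 (0.0734) or WT day 9 replicate 2 (0.0667) or 3 (0.0516).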

How the data were processed

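RNA was measured as poly(A) RNA-seq in 24 libraries, 3 replicates in each of 8 groups. The authors trimmed single-end reads (Trim Galore 0.6.6), aligned them to mm9 (TopHat2 2.1.1), discarded rRNA and X-linked reads and summarised genes in Cuffdiff, so the deposited values are FPKM per library. The library normalization and strand setting of Cuffdiff are not given in the sources used here. FPKM columns of 12 samples outside the series were not used, and 1 gene with a failed estimate was left out.

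Groups were fitted together with limma 3.58.1 (statmod 1.5.0, R 4.3.3) on log2(FPKM + 1) with eBayes trend and robust settings, two-sided, for 12105 genes outside X and Y with a mean of at least 1 FPKM, and 13 comparisons. Bmp2 was fitted over 18156 genes above 0. The fit was tested on simulated data. The added 1 FPKM understates changes of low genes. The reads in a library are known only relative to other libraries: 30367 of 31400 values of low genes (96.7%) were whole multiples of 1 read within 5%. Whether equal replicate numbers pair WT with KO was judged from how each library departed from its group mean: r between same-numbered libraries was 0.29, 0.44 and 0.14 for mESCs, 0.34, 0.18 and 0.24 for NSCs, and not above 0.1 in every pair for day 7, day 9 or any stage comparison. The labels give replicate numbers and state no pairing. Alternatives were a pseudocount of 0.1, no filter, scaling to 1 FPKM sum, limma without trend and robust settings, a replicate block, each stage alone and leaving out each library. Read ratios and folds of mean FPKM without single libraries were added after seeing the data.

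Members and lists were chosen with earlier results of these data known. Named genes are the members, the called gene with the largest rise and fall of each list in each KO against WT comparison, the 2 most similar genes of each tested member (1 gene is not reported here), and Smchd1. The others (Chrd, Nog and Fstl1 at day 7, Hey1, Msx2 and Tfap2a at day 9, Hey1 at day 7, Bmp1, Gdf3, Gdf11, Foxa2, Zfp423, Ctdsp1, Ski, Smad1, Smad4, Smad5, Tcf3 and Tcf4) were named after their values were seen.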

Additional observations from a re-analysis of the deposited data

Results flagged for a closer look

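For Bmp2 the effect of KO differed between stages: KO minus WT was 0.08 in mESCs and -1.94 at day 7, and the difference of these, tested as an interaction over the 18156 genes above 0, was -2.02 (SE 0.37, limma adjusted p = 0.0052). At day 7 the KO libraries held 1, 2 and 0 reads, all below the WT libraries with 27, 44 and 41 reads. Over the 29 alternatives the interaction ran from -4.49 to -1.91 and its adjusted p from 0.000595 to 0.0194. Bmp2 had a mean of 0.886 FPKM and was outside the filtered set, and the 3 KO day 7 libraries held 3 reads.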

How the results depend on the processing

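Precision is limited by few reads for Bmp2, Bmp4 and, in NSCs, Smad6, by 3 libraries a group and by mESC replicate 2. Counts of called members, 0 at day 7, 0 at day 9 and 1 in NSCs for KO against WT, became 1 (Bmp2) at day 7 and 1 at day 9 without the filter, 1 (Id1) at day 7, 2 at day 9 and 0 in NSCs with the libraries of a stage alone, and 2 at day 9 and 0 in NSCs with the replicate block. The count for the KO effect minus that in mESCs, 0 in each case, became 1 at day 7 without the filter and 2 at day 9 with the replicate block. With replicate 2 of both mESC groups left out, an alternative chosen after seeing the data, the counts became 2 for KO against WT at day 9, 4 for KO day 9 against day 7, 8 in place of 7 for KO day 7 against mESCs (Id3 gained), and 1 and 1 for the KO effect at day 7 and day 9 minus mESCs. For WT day 7 against mESCs it was 6 both times, with Bmp7 lost (adjusted p = 0.0538) and Bmp4 gained (0.00139).

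Leaving out 1 library gave, for KO against WT, 0 to 1 called members in mESCs, 0 to 0 for day 7, 0 to 2 for day 9 and 0 to 1 for NSCs, 0 to 1 for the KO effect at each stage minus mESCs, 5 to 7 and 6 to 8 for day 7 against mESCs in WT and KO cells, 1 to 1 and 1 to 2 for day 9 against day 7, and 8 to 8 and 7 to 8 for NSCs against mESCs. Same-numbered WT and KO libraries were not shown to be paired at day 7 and day 9, and the labels state no pairing at any stage. The block raised the calls over all genes from 446 to 641 at day 7 and from 809 to 1155 at day 9. In NSCs they went from 729 to 1145 and in mESCs from 64 to 98. Among members the block also moved Id3 (KO day 7 against mESCs, adjusted p = 0.0492) and Bambi (KO NSCs against mESCs, 0.0402) past the threshold, and changed no further member call. Calls over all genes with the libraries of a stage alone were 1, 452, 1377 and 58 for the 4 stages. Without the filter they were 164 of 18156 in mESCs. The cause of these shifts was not tested.

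No called difference changed sign. Uncalled differences that did were, with a pseudocount of 0.1, the KO effect minus that in mESCs of Bambi at day 9 (-0.041) and Smad7 in NSCs (0.066). After scaling they were the same effect of Bambi (-0.063) and Smad6 (-0.032) at day 9, Id1 between KO and WT at day 9 (-0.076), Id4 in KO NSCs against mESCs (0.118), and Bmp7 (0.007) and Bmp2 (0.003) in WT NSCs against mESCs. Without replicate 2 of both mESC groups they were Id1 (0.161) and Smad6 (0.038) between KO and WT mESCs, the KO effect minus mESCs of Bambi (0.01) and Bmp7 (0.13) at day 7, and of Id1 (-0.127), Id3 (-0.239) and Smad6 (-0.12) at day 9. Leaving out 1 library turned uncalled KO against WT differences in mESCs (Id1 -0.633 to 0.274, Id3 -0.423 to 1.168, Smad6 -0.258 to 0.018, Bmp2 -0.005 to 0.205), at day 7 (Id4 -0.242 to 0.072, Smad7 -0.304 to 0.022), at day 9 (Id1 -0.184 to 0.319) and in NSCs (Id1 -0.244 to 1.494, Id2 -0.296 to 0.418, Bambi -0.107 to 0.338, Bmp2 -0.174 to 0.004). It turned WT stage differences of Bmp4 at day 7 (-0.236 to 0.816) and of Bmp7 (-0.768 to 0.16) and Bmp2 (-0.191 to 0.004) in NSCs. It also turned the KO effect minus mESCs at day 7 (Id2 -0.081 to 0.383, Id3 -1.392 to 0.199, Bmp7 -0.61 to 0.318, Bambi -0.098 to 0.112), at day 9 (Id1 -0.241 to 0.666, Id3 -0.763 to 0.828, Bmp7 -0.36 to 0.568, Smad6 -0.1 to 0.177, Bambi -0.1 to 0.134) and in NSCs (Id1 -0.098 to 1.64, Id3 -0.332 to 1.258, Smad7 -0.395 to 0.118).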
